A study of Mus musculus with 24 samples.

Results

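The 10 genes described here, Hspa5, Dnajc3, Xbp1, Atf4, Ddit3, Creb3l3, Chac1, Asns, Trib3 and Inhbe, belong to the response of liver cells to endoplasmic reticulum (ER) stress or to its branch run by the transcription factor ATF4. They were chosen by name, with earlier results of these data known, as the probe sets whose array annotation gives one of these symbols alone. That rule found all 10 among the 18194 genes measured, with 24 of the 45101 probe sets, and all 10 genes passed the filter on dim genes. The study hybridised RNA from whole livers of male mice to 24 microarrays, which form 8 groups of 3. Each array carries its own number in its title, and nothing else says that the livers came from separate animals, so p-values measure the spread between these arrays.

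Mice of 4 genotypes at Thrb, the gene of the thyroid hormone receptor beta, were injected with T3 (triiodothyronine, the active form of thyroid hormone) or with saline (PBS), and the liver was removed after 6 h. WT mice carried the normal receptor, KO mice lacked it, GS mice carried it with E125G and G126S in its DNA-binding domain, and Y147F mice with Y147F. WT, KO and GS mice were on a C57BL/6J background, were 8 to 9 weeks old, and received 20 µg T3 per 100 g of body weight after 3 weeks of 0.02% methimazole, 0.5% perchlorate and 0.3% saccharin, drunk beside a diet low in iodine. Y147F mice came from a later submission, on C57BL/6JCrl, were 10 to 11 weeks old when made hypothyroid, and drank 0.05% methimazole and 1% perchlorate over 3 weeks beside an iodine-deficient diet. They received a single 200 ng of T3 per g, which is the same dose in another unit. All mice were thus hypothyroid, the controls too, and "without T3" below means a hypothyroid liver. Between Y147F and any other genotype, the mutation and the submission cannot be told apart. The comparison asks how far the T3 response of these genes depends on the receptor and on its binding to DNA.

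When unfolded protein builds up in the ER, the sensors IRE1, PERK and ATF6 start the unfolded protein response. IRE1 splices the Xbp1 messenger, whose protein raises folding and secretory genes. PERK, like the amino acid sensor GCN2, phosphorylates the translation factor eIF2alpha, which favours translation of ATF4 and, through it, expression of genes for amino acid supply, redox balance and cell death. In liver, which secretes most plasma proteins, the ER-anchored factor CREB3L3 (CREBH) ties this system to lipid metabolism.

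Some of these promoters hold the short elements through which the response is known to act. They are shown because 2 genes that moved in opposite directions with T3, Chac1 and Inhbe, share the same letters. Each stretch is RefSeq sequence of mouse build GRCm38.p6 from the 300-base window around the gene's annotated start, read 5′ to 3′ on the gene's strand and ending at or before the start. Capitals mark the ATF4 composite element, searched as TGATGNAA on both strands (TTNCATCA on the other), in Chac1 (chr2:119351013-119351092, plus strand, element 193 bases before the start), Inhbe (chr10:127351986-127352065, minus strand, 181 bases before) and Asns (chr6:7693210-7693268, minus strand, 23 bases before). In Hspa5 (chr2:34771989-34772079, plus strand, 65 bases before) and Dnajc3 (chr14:118937791-118937881, plus strand, 105 bases before) they mark the ER stress element, searched on both strands as CCAAT and CCACG with 9 bases of any kind between. No 2 of these elements overlap.
Chac1: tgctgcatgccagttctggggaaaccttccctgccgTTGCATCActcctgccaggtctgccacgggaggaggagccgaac
Inhbe: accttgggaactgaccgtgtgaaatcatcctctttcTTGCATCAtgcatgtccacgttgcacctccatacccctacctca
Asns: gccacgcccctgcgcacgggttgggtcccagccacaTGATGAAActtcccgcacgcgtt
Hspa5: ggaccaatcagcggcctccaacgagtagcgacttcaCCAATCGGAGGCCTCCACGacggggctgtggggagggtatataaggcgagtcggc
Dnajc3: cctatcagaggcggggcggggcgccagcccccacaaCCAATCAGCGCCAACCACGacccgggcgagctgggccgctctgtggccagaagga

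The ATF4 composite element occurred in the windows of 4 of the 10 genes, the fourth being Trib3, where it lies 14 bases after the start, and in 4.51% of the 27025 genes with a window. The ER stress element occurred in 2 of the 10 and in 0.137% of all genes. The shorter XBP1 element TGACGTG was found in Hspa5 alone of the 10, against 2.22% of all genes. Neither the cyclic AMP element TGACGTCA nor AGGTCA repeated after 4 bases of any kind, a form of thyroid hormone response element, was found in any of the 10 windows, against 2.03% and 0.0148% of all genes. A match is a run of letters and not a shown binding site, and a missing one says only that these letters are not in this window.

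The probe set for Thrb lay between 6.17 and 7.25 (log2 intensity) on all 24 arrays, and was no lower in KO, where its 6 arrays lay between 6.82 and 7.25. The position of its probes relative to the deleted part is not known here, so it does not check the KO label. The hepatic T3 target Dio1, the deiodinase that activates thyroid hormone, rose from a mean of 4.68 to 11.31 in WT and from 4.57 to 12.09 in Y147F, but from 5.92 to 7.74 in KO and from 5.77 to 8.29 in GS. Albumin (Alb), the defining hepatocyte product, lay between 15.12 and 15.21 on every array. Array medians lay between 5.88 and 6.00. One array stood apart in RNA quality, replicate 3 of Y147F with PBS: the 3′ probe set of the actin control exceeded its 5′ probe set by 0.80, against 0.49 to 0.60 on the other arrays, and the calls of the 10 genes and their pathway for T3 in Y147F that were lost without it are named below.

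T3 lowered 3 of the 10 genes and raised 1 in WT, and it moved the same 4 in Y147F. Inhbe, Creb3l3 and Xbp1 fell and Chac1 rose. The master regulator Atf4 and its classical targets Ddit3, Trib3 and Asns, and the chaperone Hspa5, did not pass the test in either genotype. None of the 10 passed in KO or in GS. The test throughout was limma's moderated test, fitted to all 14159 genes that passed the filter and adjusted over them by Benjamini and Hochberg, and a gene is called where the adjusted p is under 0.05. Of all genes tested, 10.6% were called in WT (5.72% higher, 4.9% lower), 11.6% in Y147F (5.53% higher, 6.08% lower), 0.177% in KO and 0.148% in GS. The T3 and PBS arrays did not overlap for 5 of the 10 in WT, 5 in Y147F, 3 in KO and 0 in GS, and for 29.5%, 26%, 15.2% and 13.1% of all genes tested. At an unadjusted p under 0.05 the count of the 10 was 6 in WT, 5 in Y147F, 0 in KO and 0 in GS. The share of all genes at that unadjusted threshold was not counted here or below. Many genes of the array pass it: Atf4, at an unadjusted limma p of 0.0242 in WT and 0.0256 in Y147F, ranked 2509 and 2701. The median absolute difference of the 10 was 0.29 in WT, 0.24 in Y147F, 0.17 in KO and 0.11 in GS, and that of all genes tested was 0.11, 0.11, 0.08 and 0.07. The 10 genes and the lists below were chosen with earlier results of these data known. Comparisons of their shares and sizes with those of all genes are therefore descriptions and not tests.

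**Figure D1:**
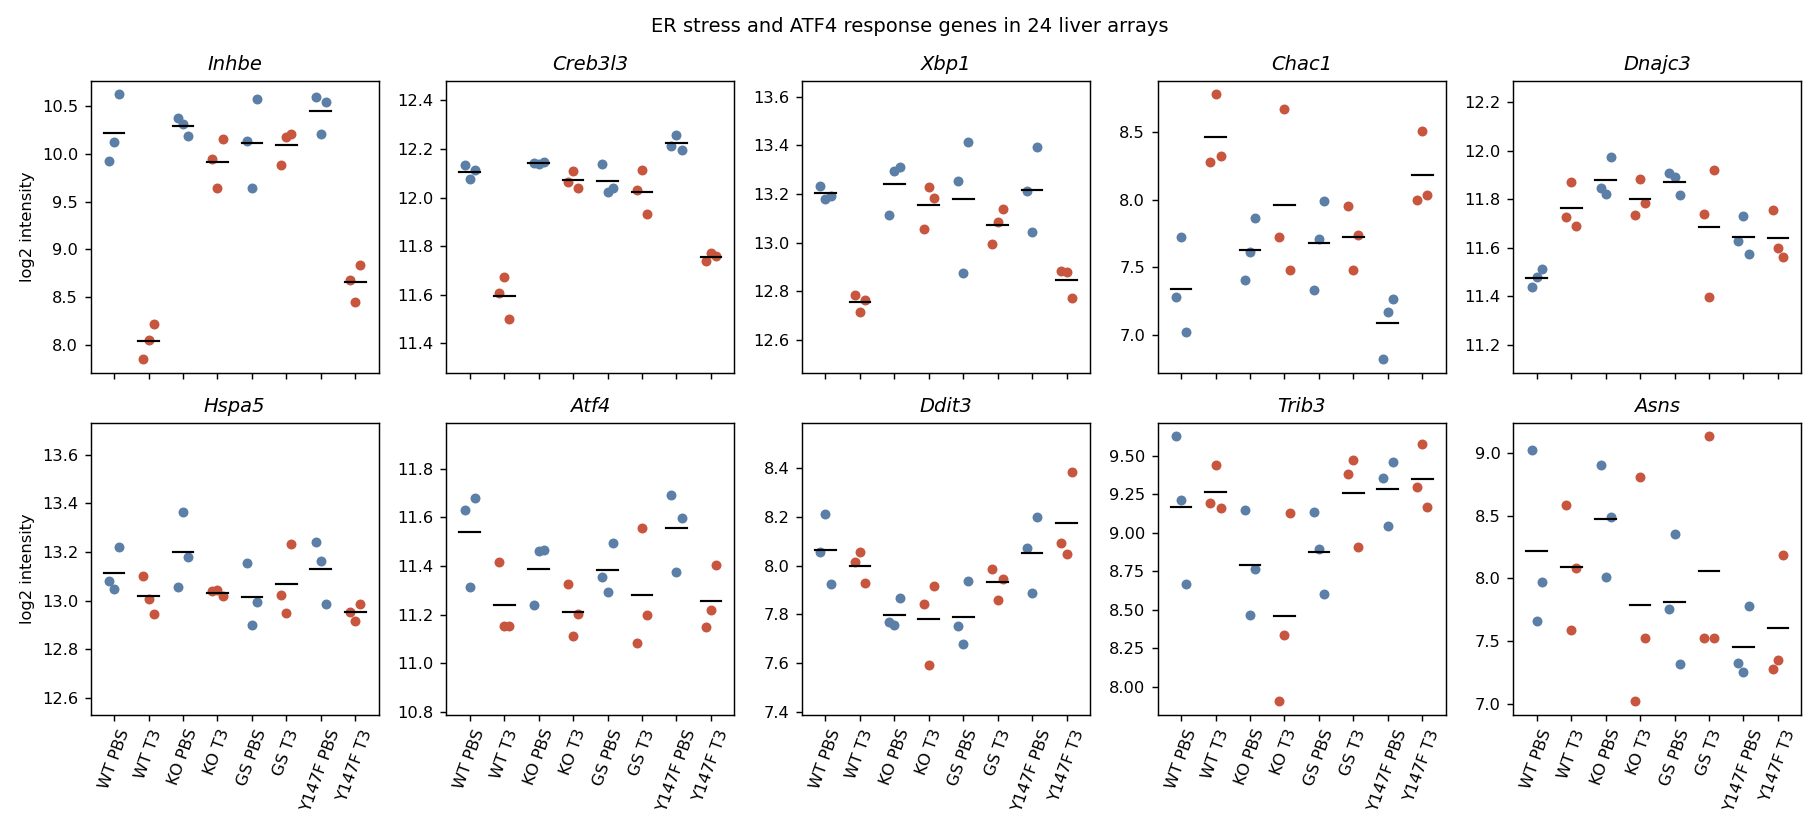
The log2 intensity (vertical axis, scaled for each gene) of the 10 genes is plotted for each of the 24 arrays, with PBS arrays in blue, T3 arrays in red and the mean of each group of 3 as a bar. The T3 arrays of Inhbe, Creb3l3 and Xbp1 lie below, and those of Chac1 above, the PBS arrays in WT and in Y147F, while the arrays of Asns and Trib3 scatter within each group.

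Inhbe encodes a subunit of activin E, a hormone that the liver secretes and that acts on fat tissue. In WT its log2 intensity was 9.92, 10.12 and 10.62 with PBS and 7.84, 8.05 and 8.21 with T3. In Y147F it was 10.60, 10.21 and 10.54 with PBS and 8.68, 8.45 and 8.83 with T3. The T3 arrays of both genotypes lay more than 1 log2 unit below every PBS array of their own genotype. The difference was -2.19 ± 0.20 in WT (SE, n = 3 per group, a fall of 4.55-fold, limma adjusted p = 1.26e-07), and by p it ranked 57 among all genes tested. In Y147F it was -1.79 ± 0.20 (3.47-fold, limma adjusted p = 2.29e-06).

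In KO, Inhbe read 10.38, 10.31 and 10.19 with PBS and 9.94, 9.65 and 10.15 with T3. The 2 groups do not overlap, but the difference of -0.38 (95% interval -0.79 to 0.03) did not pass (limma adjusted p = 0.538). In GS it read 10.14, 9.64 and 10.58 with PBS and 9.88, 10.18 and 10.21 with T3, a difference of -0.03 (95% interval -0.44 to 0.39). The GS arrays with T3 lie within the range of those with PBS. Without T3, group means lay between 10.12 and 10.45, and Inhbe was not called in any of the 4 genotype differences tested (KO, GS and Y147F against WT, and GS against KO). The T3 difference was less negative than in WT by 1.81 ± 0.28 in KO (limma adjusted p = 0.000535) and by 2.16 ± 0.28 in GS (limma adjusted p = 6.45e-05). Of all genes tested, 3.09% were called in the first of these contrasts (1.03% with a less negative or more positive response) and 2.92% in the second (0.968%). Both share the WT arrays, so they are not independent of each other. In Y147F the T3 difference was less negative than in WT by 0.39 with a 95% interval of -0.19 to 0.98, and no gene of the array was called in that contrast.

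Inhbe and Ddit3 are close neighbours on chromosome 10, with 4 annotated genes between them (Mars1, the pseudogene Gm6283, Arhgap9 and Gli1). Ddit3 did not share the fall of its neighbour. It encodes CHOP, the factor linked to cell death in prolonged ER stress, and its T3 difference was -0.06 in WT (95% interval -0.28 to 0.15) and 0.12 in Y147F (-0.10 to 0.34). Its second, dimmer probe set gave 0.06 in WT and 0.43 in Y147F, neither called. Over the 18 arrays of WT, KO and GS, the genes whose pattern was most like that of Inhbe were Glyat (Pearson r = 0.929) and Slc19a1 (r = 0.922). These correlations describe arrays that share the same groups.

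Creb3l3 encodes CREBH, an ER-membrane factor of liver and gut that is cut in the Golgi and then activates lipid and acute phase genes. It read 12.13, 12.07 and 12.11 with PBS and 11.61, 11.68 and 11.50 with T3 in WT. In Y147F it read 12.21, 12.26 and 12.20 with PBS and 11.74, 11.77 and 11.76 with T3. All 6 T3 arrays of these genotypes lie below all 12 PBS arrays of the study, whose lowest value is 12.02. The fall was small and very even, at -0.51 ± 0.06 in WT (1.43-fold, limma adjusted p = 2.08e-06) and -0.47 ± 0.06 in Y147F (1.38-fold, limma adjusted p = 9.69e-06). Its SD within groups was 0.0537, at percentile 2.18 of all genes tested, whose median SD was 0.12.

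In KO, Creb3l3 lay between 12.14 and 12.15 with PBS and read 12.06, 12.11 and 12.04 with T3. In GS it read 12.14, 12.02 and 12.04 with PBS and 12.03, 12.11 and 11.93 with T3. The KO groups are separate by a narrow gap and the GS groups overlap. The differences were -0.07 (95% interval -0.19 to 0.05) and -0.04 (-0.16 to 0.08). Against WT, the T3 difference was less negative by 0.44 ± 0.08 in KO (limma adjusted p = 0.00269) and by 0.47 ± 0.08 in GS (limma adjusted p = 0.00144). Between GS and KO the T3 differences of Creb3l3 differed by 0.03 (95% interval -0.14 to 0.20). The genes most like it over the 18 arrays were Nr1h4, the bile acid receptor (r = 0.936), and Apoa5, a regulator of plasma triglycerides and a known CREB3L3 target (r = 0.925).

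Xbp1 encodes the transcription factor that IRE1 activates by splicing. Its 4 probe sets do not tell spliced from unspliced messenger here, so only its total level is described. The brightest probe set read 13.23, 13.18 and 13.19 with PBS and 12.78, 12.72 and 12.76 with T3 in WT. In Y147F it read 13.21, 13.04 and 13.39 with PBS and 12.88, 12.88 and 12.77 with T3. The T3 arrays lie below the PBS arrays in both, with a wider spread in Y147F with PBS. The difference was -0.45 ± 0.10 in WT (1.36-fold, limma adjusted p = 0.00637) and -0.37 ± 0.10 in Y147F (1.29-fold, limma adjusted p = 0.0233). The Y147F call was borderline and held in 7 of 13 alternatives. It was lost without PBS replicate 1, T3 replicate 1 or T3 replicate 3. Without the array that stood apart in RNA quality the difference was -0.28 and was not called (limma adjusted p = 0.124). In that fit Inhbe (-1.75), Creb3l3 (-0.48) and Chac1 (1.19) were still called in Y147F.

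All 4 probe sets of Xbp1 were called lower in WT, with differences from -0.63 to -0.45. In Y147F 3 of 4 were called, with differences from -0.50 to -0.37, and 2 of them without the array that stood apart (-0.45 and -0.38, limma adjusted p = 0.0171 and 0.0461). None was called in KO or GS. In KO the brightest probe set read 13.11, 13.29 and 13.31 with PBS and 13.05, 13.23 and 13.18 with T3, a difference of -0.08 (95% interval -0.30 to 0.13). In GS it read 13.25, 12.88 and 13.41 with PBS and 12.99, 13.09 and 13.14 with T3, a difference of -0.11 (-0.33 to 0.11). These groups overlap. The T3 difference of Xbp1 was less negative than in WT by 0.36 ± 0.15 in KO and by 0.34 ± 0.15 in GS, and neither passed (limma adjusted p = 0.268 and 0.303). A loss of its T3 response in these mutants was therefore not shown. Its most alike genes were Keg1 (r = 0.89) and again Nr1h4 (r = 0.886).

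Chac1 encodes a cyclotransferase that breaks down glutathione and is a sensitive target of ATF4 and CHOP. It was the gene of the 10 that rose with T3. In WT it read 7.28, 7.73 and 7.02 with PBS and 8.28, 8.78 and 8.33 with T3. In Y147F it read 6.82, 7.17 and 7.27 with PBS and 8.00, 8.51 and 8.04 with T3. Every T3 array of these genotypes was brighter than every PBS array of its own genotype. The difference was 1.12 ± 0.25 in WT (2.17-fold, limma adjusted p = 0.00535) and 1.10 ± 0.25 in Y147F (2.14-fold, limma adjusted p = 0.00646), and the 2 responses differed by -0.02 (95% interval -0.77 to 0.73).

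In KO, Chac1 read 7.40, 7.61 and 7.86 with PBS and 7.72, 8.67 and 7.48 with T3, so that 1 of the 3 T3 arrays was as bright as those of WT and the other two lay among the PBS arrays. In GS it read 7.33, 7.71 and 7.99 with PBS and 7.96, 7.48 and 7.74 with T3, which overlap fully. The differences were 0.33 (95% interval -0.20 to 0.86) and 0.05 (-0.48 to 0.58). The T3 difference minus that in WT was -0.79 ± 0.36 in KO and -1.07 ± 0.36 in GS. Neither passed (limma adjusted p = 0.36 and 0.141), though both unadjusted values were under 0.05. The spread of Chac1 within groups was wide, with an SD of 0.346 at percentile 98 of all genes tested. Its most alike genes were Tmub1 (r = 0.853) and Dmac2 (r = 0.821).

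**Figure D2:**
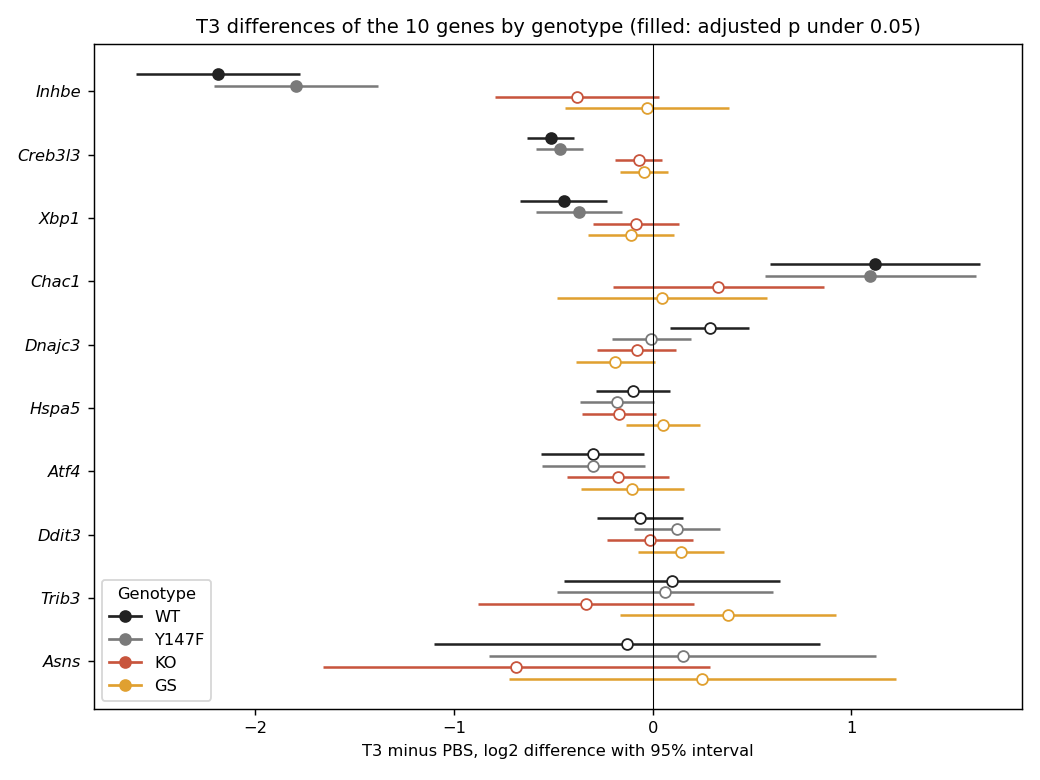
The T3 minus PBS difference of each gene (log2, horizontal axis) is drawn with its 95% interval for the 4 genotypes, and filled points have an adjusted p under 0.05. In WT and Y147F the filled points are Inhbe, Creb3l3 and Xbp1 below 0 and Chac1 above 0, and no point of KO or GS is filled.

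Atf4, the factor at the head of the amino acid and PERK branch, is controlled largely at translation, which an array does not measure. It read 11.63, 11.31 and 11.68 with PBS and 11.41, 11.15 and 11.15 with T3 in WT. In Y147F it read 11.69, 11.37 and 11.60 with PBS and 11.15, 11.22 and 11.40 with T3. The groups overlap in both. The differences were -0.30 (95% interval -0.56 to -0.04) in each, under 0.05 unadjusted but not after adjustment (limma adjusted p = 0.136 and 0.134). Of its 3 probe sets 1 was too dim to test. The other two gave -0.42 and -0.30 in WT, neither called, and -0.46 and -0.30 in Y147F, of which the first was called lower (limma adjusted p = 0.0285 over 24575 probe sets). Without the array that stood apart it was -0.44 and not called (limma adjusted p = 0.0792). In KO and GS the differences were -0.17 and -0.10, not called.

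The targets Asns and Trib3 scattered too widely for a change of ordinary size to be seen. Asns encodes asparagine synthetase, whose gene is a classical ATF4 target. It read 9.02, 7.66 and 7.97 with PBS and 8.59, 7.59 and 8.08 with T3 in WT. In KO it ran from 7.02 to 8.81 with T3, and in GS from 7.52 to 9.13. Its SD within groups of 0.641 stands at percentile 99.7 of all genes tested. Its T3 difference in WT was -0.13 with a 95% interval of -1.10 to 0.84. Trib3 encodes a pseudokinase that binds ATF4 and restrains Akt, and its SD of 0.355 stands at percentile 98.1. Its T3 differences were 0.10 in WT, 0.06 in Y147F, -0.33 in KO and 0.38 in GS, none called, and between GS and KO they differed by 0.71 (95% interval -0.06 to 1.48). Its 3 T3 arrays in KO read 7.90, 8.34 and 9.13, and those in GS 9.38, 9.47 and 8.91.

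Hspa5 encodes BiP, the main Hsp70 chaperone of the ER and the usual marker of the unfolded protein response. Its group means lay between 12.95 and 13.20, a span of 0.249. Its T3 differences were -0.10 in WT (95% interval -0.28 to 0.09), -0.18 in Y147F (-0.36 to 0.01), -0.17 in KO (-0.35 to 0.02) and 0.05 in GS (-0.13 to 0.24). In Y147F the T3 arrays (12.95, 12.91 and 12.99) lie just below the PBS arrays (13.24, 13.16 and 12.99), without overlap. None of its 3 probe sets was called in any T3 comparison. These intervals leave room for a fall of up to 0.36 and for a rise of up to 0.24.

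Dnajc3 encodes an ER co-chaperone of BiP that also inhibits PERK, and it was the gene of the 10 that differed between genotypes without T3. It read 11.44, 11.48 and 11.51 in WT, 11.85, 11.82 and 11.97 in KO, 11.91, 11.89 and 11.82 in GS, and 11.63, 11.73 and 11.57 in Y147F, all with PBS. On its brightest probe set, every KO, GS and Y147F array lies above every WT array. KO was higher than WT by 0.40 ± 0.10 (1.32-fold, limma adjusted p = 0.0125) and GS by 0.40 ± 0.10 (1.32-fold, limma adjusted p = 0.0256). Of all genes tested, 6.86% were called in the first contrast (3.76% higher than WT) and 2.95% in the second (1.97% higher). Arrays of the 2 groups did not overlap for 23.6% and 20.4% of them. That share was not counted for Y147F minus WT. The GS call did not hold when any 1 of the 6 arrays was left out (limma adjusted p from 0.0537 to 0.0979), and the KO call was lost without KO replicate 3 (0.36, limma adjusted p = 0.0704). On that probe set Y147F lay 0.17 above WT (95% interval -0.03 to 0.37), not called, but other probe sets gave the opposite sign. The mean of 12 Kupffer cell markers lay between 8.87 and 9.01 in KO and between 8.73 and 8.84 in WT with PBS, with 1 called higher in KO (Clec4f, 0.59). The 12 sinusoidal endothelial markers lay lower in KO, between 9.25 and 9.30 against 9.37 to 9.41 in WT, with none called. The 12 stellate cell markers lay lower in GS, between 8.57 and 8.67 against 8.71 to 8.96 in WT. In KO they lay between 8.81 and 9.14, which overlaps WT, with a median difference of 0.25 and 5 of the 12 below 0. Of the stellate cell markers 1, Lrat, was called lower in both KO (-1.15) and GS (-1.13). The part of these cells in the genotype differences was not tested.

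With T3, Dnajc3 in WT read 11.73, 11.87 and 11.69, all above the PBS arrays. In KO it read 11.73, 11.88 and 11.78, in GS 11.74, 11.40 and 11.92, and in Y147F 11.76, 11.60 and 11.56. The T3 arrays of WT lie within the range of the other T3 arrays, and differences between genotypes under T3 were not tested. The T3 difference in WT was 0.29 ± 0.10 and narrowly missed (limma adjusted p = 0.0618). In GS it was -0.19 (95% interval -0.39 to 0.01), in KO -0.08 (-0.28 to 0.12) and in Y147F -0.01 (-0.21 to 0.19). The T3 difference in GS minus that in WT was -0.47 ± 0.14 (limma adjusted p = 0.0664), and that in KO minus that in WT was -0.37 ± 0.14 (limma adjusted p = 0.196). Both used the WT arrays with PBS, which also set the genotype differences above, so these results are not independent.

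The 5 probe sets of Dnajc3 gave unequal values. For KO minus WT without T3 they ran from 0.06 to 0.41, and for GS minus WT from 0.13 to 0.40, with 2 of 5 called higher in each. For Y147F minus WT without T3 they ran from -0.11 to 0.17, none called. On the second brightest, every Y147F array with PBS (highest 11.494) lay below every WT array with PBS (lowest 11.512). For T3 in WT they ran from 0.01 to 0.36, with 1 called higher.

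**Figure D3:**
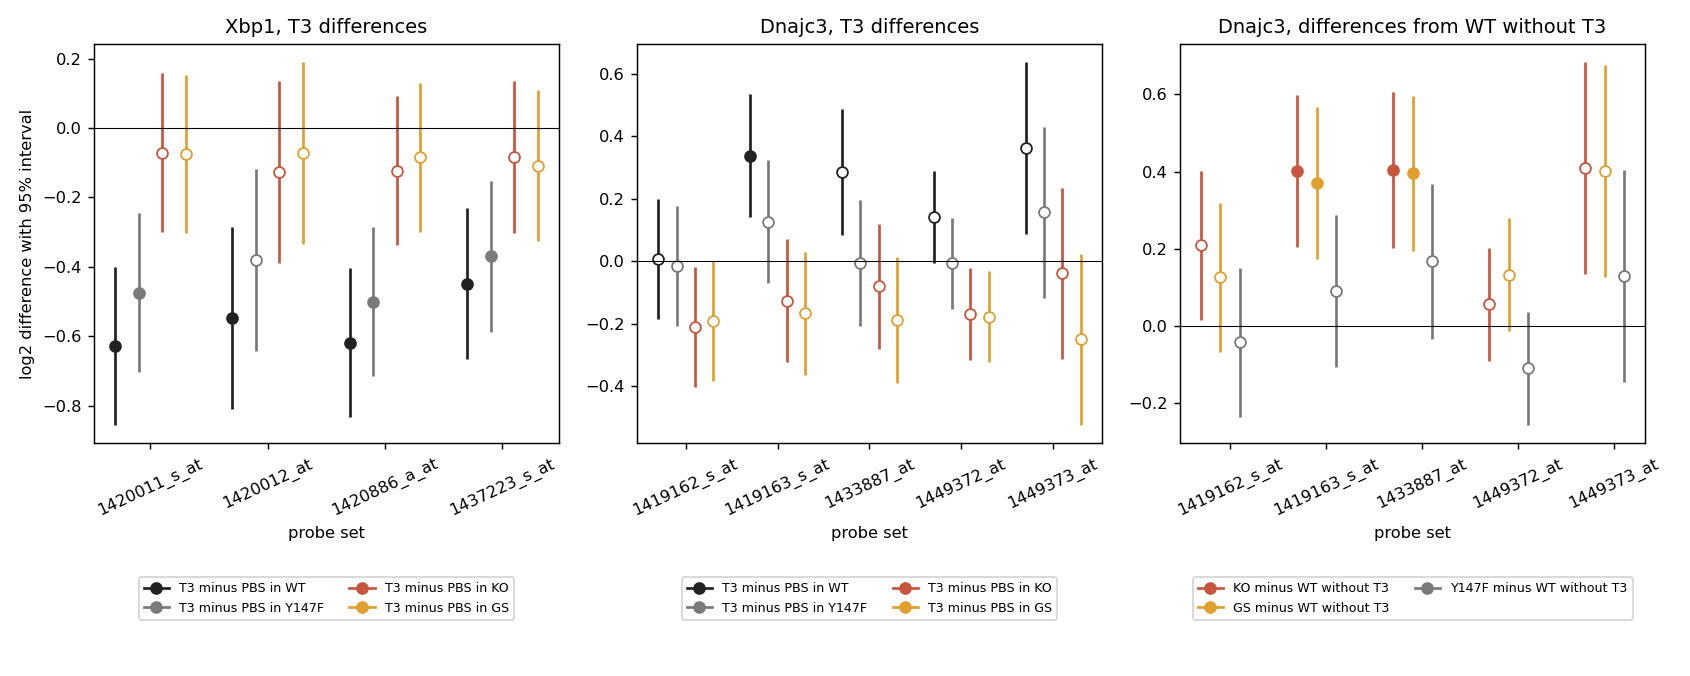
Log2 differences (vertical axis) of each probe set of Xbp1 and Dnajc3 are drawn with 95% intervals, for T3 minus PBS by genotype and, in the right panel, for each genotype minus WT without T3. Filled points have an adjusted p under 0.05 over all probe sets tested. The 4 probe sets of Xbp1 lie together within each genotype. Those of Dnajc3 spread from near 0 to about 0.4 for T3 in WT and for KO and GS minus WT. They lie below 0 for T3 in KO (-0.21 to -0.04) and GS (-0.25 to -0.17), and on both sides of 0 in Y147F.

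Ddit3 without T3 read 8.06, 8.21 and 7.92 in WT, 7.77, 7.75 and 7.87 in KO, and 7.75, 7.68 and 7.94 in GS. The difference from WT was -0.27 in both, under 0.05 unadjusted and not called (limma adjusted p = 0.139 and 0.193). Its second probe set gave -0.14 and -0.17. For Y147F minus WT the 2 probe sets gave -0.01 and -0.41, neither called. None of the other 8 genes was called between KO or GS and WT without T3, and none of the 10 between Y147F and WT, or between GS and KO. Of all genes tested, 0.0848% and 0.0989% were called in the last 2 contrasts. At an unadjusted limma p under 0.05 none of the 10 passed in either.

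By range of group means, Inhbe spanned 2.41, Chac1 1.38, Asns 1.02, Trib3 0.889 and Creb3l3 0.629, and the other 5 genes spanned 0.249 (Hspa5) to 0.485 (Xbp1). Set against the spread within groups, the order was another. The range was 11.7 SDs for Creb3l3, 9.03 for Inhbe and 3.99 for Chac1, and the other 7 followed from 3.7 (Xbp1) down to 1.59 (Asns).

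The mean levels of some marker lists of other liver cells also lay apart between T3 and PBS in WT. The mean level of 12 sinusoidal endothelial markers lay between 9.15 and 9.26 with T3 and between 9.37 and 9.41 with PBS in WT, and that of 6 cholangiocyte markers between 6.09 and 6.25 with T3 and 6.39 and 6.65 with PBS. None of these markers was called in WT, but the groups of list means do not overlap. Among single genes tested, 29.5% did not overlap in WT. In Y147F, with the same 4 genes called, the endothelial markers lay between 9.29 and 9.48 with T3 and 9.38 and 9.52 with PBS, and the cholangiocyte markers between 6.29 and 6.62 and between 6.26 and 6.47. There 1 of the 12 and 1 of the 6 were called higher. The 5 hepatocyte markers lay between 14.05 and 14.21 in both genotypes and treatments, with Hnf4a, a factor of hepatocyte identity, called lower in both (-0.37 and -0.24). Their T3 and PBS groups overlapped in WT but not in Y147F (14.057 to 14.170 with T3 and 14.173 to 14.214 with PBS). The 12 Kupffer cell, 12 stellate cell and 8 lymphocyte and neutrophil markers overlapped between T3 and PBS in both genotypes, and none of those tested was called. With none of the 10 genes called, the cholangiocyte markers did not overlap in KO either (6.10 to 6.31 with T3 and 6.33 to 6.90 with PBS), nor the endothelial markers in GS (9.17 to 9.27 with T3 and 9.28 to 9.39 with PBS). Hepatocyte markers did not overlap in GS (14.09 to 14.13 with T3 and 14.14 to 14.21 with PBS). The part of these cells in the results was not tested, and in whole liver fewer cells of a type and less RNA per cell cannot be told apart.

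The rest of the pathway was described with 8 lists of 142 genes, of which 138 were measured and 133 tested. With T3, 9 rose and 9 fell in WT, or 13.5% called, against 10.6% of all genes. In Y147F 10 rose and 10 fell, or 15%, against 11.6%. In KO and GS none passed by limma, with 18 and 7 at an unadjusted p under 0.05. The median difference of the 133 was -0.03 in WT, Y147F and GS and -0.08 in KO. That of all genes tested was -0.03 in WT, -0.01 in Y147F, 0.004 in GS and -0.01 in KO. Of the 133, 102 lay below 0 in KO, 89 in GS and 77 in each of WT and Y147F. For the lists together, the share of calls in WT and Y147F was near that of the array, with as many up as down. By list, the share in WT ran from 0% (ER-associated degradation and translocon) to 30.8% (ATF4 targets). Without the array that stood apart the Y147F count was 15, and the calls lost were Eif4ebp1, Tars, Txndc11, Fads2 and Creb3.

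Of the 11 tested sensors and eIF2alpha kinases, Ern1, the gene of IRE1, was the one called in WT and rose by 0.43 ± 0.11 (limma adjusted p = 0.0178), while its substrate Xbp1 fell. The share called in WT was 9.09%, against 10.6% of all genes. No sensor or kinase was called in Y147F, where Ern1 differed by 0.18. In KO and GS Ern1 differed by -0.42 and -0.34, which did not pass (limma adjusted p = 0.154 and 0.513). The T3 difference of Ern1 minus that in WT was -0.85 ± 0.16 in KO (limma adjusted p = 0.00401) and -0.77 ± 0.16 in GS (limma adjusted p = 0.00893).

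Of the 26 tested ATF4 targets of amino acid supply and stress, 5 rose and 3 fell in WT, and as many did in Y147F. That is 30.8% called in each, against 10.6% and 11.6% of all genes. Cebpb, a bZIP factor of acute phase and metabolic genes, rose by 1.19 in WT and 0.74 in Y147F. The amino acid transporters Slc38a2 (1.06 and 0.63) and Slc6a9 (0.51 and 0.74) rose, as did Bbc3, which promotes apoptosis (0.60 and 0.86), and Shmt2, of mitochondrial folate metabolism (0.42 and 0.36). Sesn2, a leucine sensor and stress gene, fell (-0.46 and -0.43). Nupr1, a stress-induced chromatin protein, fell in WT (-0.92), as did Cth, of cysteine synthesis (-0.41). Ddit4, an inhibitor of mTORC1, fell in Y147F (-1.10), as did Eif4ebp1, a repressor of translation (-0.39). Against WT, the T3 differences of 1 of the 26 were called higher and of 3 lower in KO, and of none higher and 4 lower in GS, where 3.09% and 2.92% of all genes were called. Those of Cebpb (-1.30 and -1.30 minus that in WT), Slc38a2 (-1.38 and -1.16) and Slc6a9 (-0.82 and -0.65) were lower in KO and in GS. That of Shmt2 was lower in GS (-0.50), and that of Cth was higher in KO (0.44). Genes of this list thus went both ways within a genotype. The response differences used the PBS arrays of WT, KO and GS. Those arrays also set the differences without T3 given below for Slc6a9, Cebpb, Shmt2 and Cth, so these results are not independent. Differences of these genes between genotypes under T3 were not tested.

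Of the 24 tested ER chaperones and folding enzymes 1 rose and none fell in WT, namely the oxidase Ero1a (0.32). In Y147F it rose (0.36) with Txndc11 (0.61), and the disulfide isomerase Pdia4 fell (-0.42). Of 28 genes of ER-associated degradation and the translocon, none was called in WT by limma, with 6 at an unadjusted p under 0.05, and Herpud1 fell in Y147F (-0.34). Of 12 aminoacyl tRNA synthetases Tars fell in both (-0.42 and -0.43) and Aars rose in Y147F (0.33). The share called in WT was 4.17% of the chaperones, 0% of the degradation genes and 8.33% of the synthetases, against 10.6% of all genes. In Y147F it was 12.5%, 3.57% and 16.7%, against 11.6%. Most folding and degradation genes, like Hspa5, were not called.

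Beside Creb3l3 itself, 3 of its 10 tested known targets were called in WT and 3 in Y147F. That is 30% in each, against 10.6% and 11.6% of all genes. Apoa5 fell in WT and Y147F (-0.29 in each) and Crp, an acute phase protein, fell in both (-0.56 and -0.41), while the iron hormone Hamp rose in WT (0.30) and the desaturase Fads2 rose in Y147F (0.62). Beside Inhbe, 1 of 11 tested genes of the activin and inhibin system was called in WT, its close relative Inhbc, which fell (-0.55). The share called was 9.09%, against 10.6% of all genes. Of 11 tested bZIP partners and CREB3 relatives, Nfil3 (-1.45 and -1.40) and Crem (-0.83 and -0.84) fell in WT and Y147F, and Creb3 rose (0.25 and 0.22). The share called was 27.3% in each, against 10.6% and 11.6% of all genes.

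Without T3, 10 of the 133 were higher and 4 lower in KO than in WT, or 10.5% called against 6.86% of all genes. Beside Dnajc3 stood 3 folding genes, Ero1b (0.55), Pdia6 (0.44) and Dnajb11 (0.36), and Edem3, of ER-associated degradation (0.39). Also higher were Apoa4 (2.11), the hepatokine Fgf21 (1.18), Slc6a9 (0.66), Cebpb (0.54), Aars (0.39) and Creb3 (0.27), and the lower ones were Vldlr (-1.95), Nupr1 (-0.96), Got1 (-0.72) and Cth (-0.53). In GS 4 were higher and 2 lower, or 4.51% called against 2.95% of all genes. Apoa4 (1.51), Slc6a9 (0.48), Shmt2 (0.43) and Aars (0.40) were higher and Nupr1 (-1.11) and Cth (-0.46) lower. The count fell from 14 to 8 in KO without either KO replicate 2 or WT replicate 2 and to 9 without KO replicate 3, and from 6 to 3 in GS without WT replicate 2, all with PBS.

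**Figure D4:**
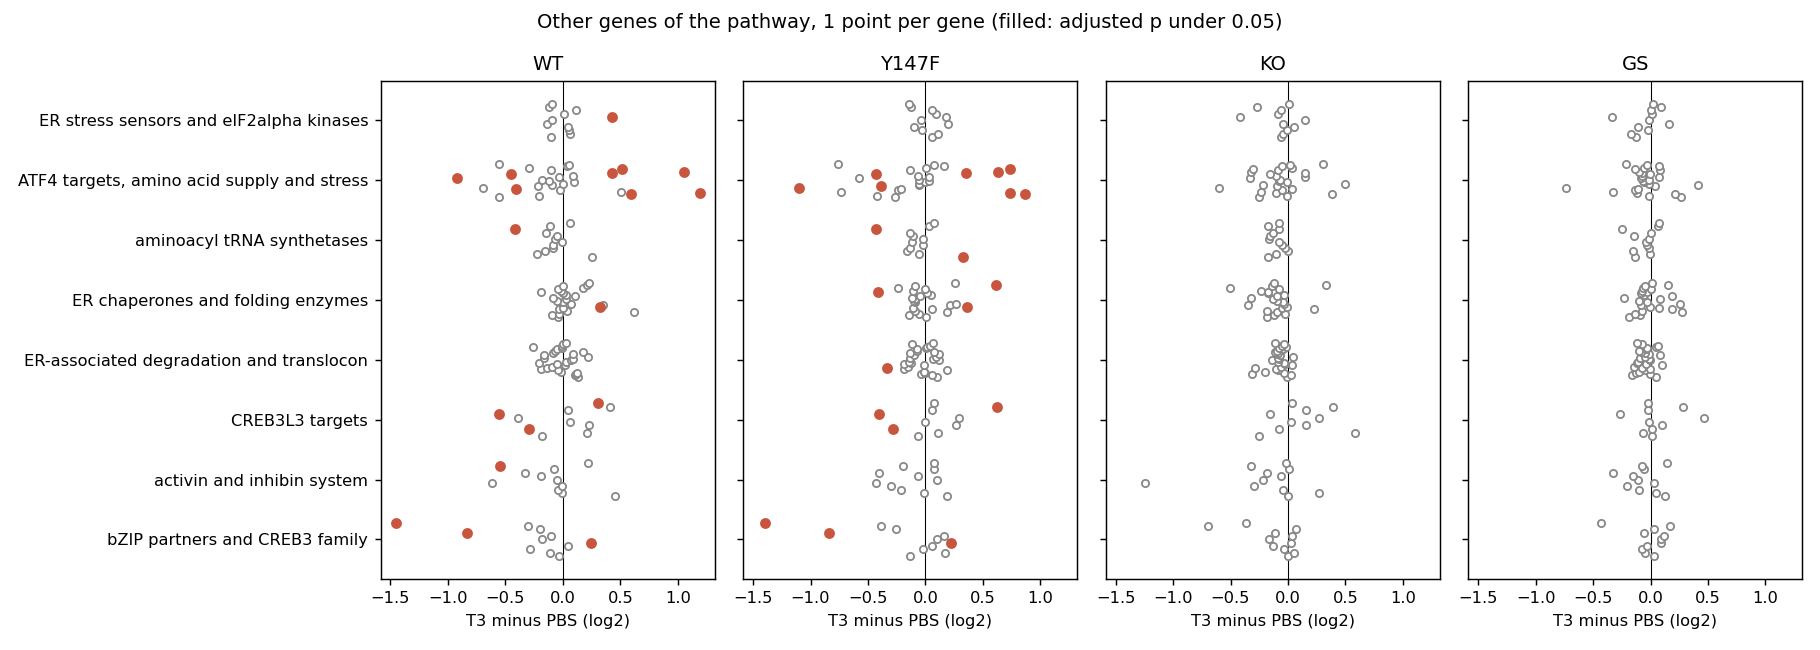
Each point is 1 of the 133 other pathway genes tested, placed by its T3 minus PBS difference (log2, horizontal axis) and its list, for the 4 genotypes, with red points at an adjusted p under 0.05. The red points fall on both sides of 0 in WT and Y147F, and there are none in KO or GS.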

How the data were processed

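The deposited values are log2 intensities made by the authors with RMA, per the submitters' processing notes, from 200 ng of liver RNA per array. Its version was not given in the sources used here. The 6 deposited Y147F columns lacked the decimal mark in nearly every cell, which was restored so that each value lay from 3 to 16, and cells that a spreadsheet could have turned into day numbers were set missing (0.435%, none in the 24 probe sets described). Each gene was represented by its brightest probe set. Genes at the 40th percentile of an array in at least 3 arrays were fitted in limma 3.58.1 (R 4.3.3) with 8 group means and no covariate, with 16 residual and 4.28 prior degrees of freedom. Tests were two-sided. Responses are differences of T3 minus PBS between genotypes. The steps were tested on simulated data. Of the probe sets, 34958 had 1 symbol in the platform annotation and were used, and promoters were matched by symbol to RefSeq for all 10 genes. For the pathway lists, up to 4 called genes per list, comparison and direction, those of smallest p, were named, and a gene named for WT or Y147F is given in the other where called there. The members and lists were chosen with earlier results of these data known. Alternatives were quantile normalisation, other filters, the mean of probe sets, trended robust moderation, fewer arrays in the fit, a covariate for title numbers over 100000 and leaving out each array.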

Additional observations from a re-analysis of the deposited data

Results flagged for a closer look

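The T3 response of 2 of the 10 genes differed between genotypes by a test of the difference itself. The response of Inhbe was less negative than in WT by 1.81 in KO and by 2.16 in GS, and that of Creb3l3 by 0.44 in KO and by 0.47 in GS, each with 3 arrays per group and called by limma. In WT all 3 T3 arrays of both genes lay below all 3 PBS arrays. In KO they did so as well, by narrower gaps, and neither gene was called there. In GS the T3 and PBS arrays of both genes overlap.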

How the results depend on the processing

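No called difference of the 10 genes changed direction in the other settings (8, or 7 for comparisons with Y147F, which a fit to the first submission alone leaves out) or with each array left out. Direction was not followed across all settings for the other pathway genes or for single probe sets. Inhbe, Creb3l3 and Chac1 in WT and Y147F, and the response differences of Inhbe and Creb3l3, were called in every setting run and with each array left out. Depending on the array left out, the count of the 10 genes called was 4 in WT, 3 to 4 in Y147F, 2 for the KO response difference, 2 to 3 for the GS one, 0 to 1 for KO minus WT without T3 and 0 for GS minus WT without T3. The last was 0 also with the mean of probe sets (Dnajc3 0.29, limma adjusted p = 0.0654). In WT, T3 raised Dnajc3 with a filter at the 60th percentile (limma adjusted p = 0.0471), trended robust moderation (0.0428) or the compared arrays alone (0.0491), within a range of 0.0428 to 0.24 over its alternatives. The lower Dnajc3 response in GS was called with the mean of probe sets (0.0481), trended robust moderation (0.0441) and without GS T3 replicate 3 (0.0108). Xbp1 in Y147F was not called with the compared arrays alone (0.0779), the title number covariate (0.0535), or without PBS replicate 1 (0.0549), PBS replicate 3 (0.124), T3 replicate 1 (0.0504) or T3 replicate 3 (0.074). The pathway genes called without T3 fell from 14 to 8 in KO and from 6 to 2 in GS with the compared arrays alone. With each array left out they ran from 8 to 15 in KO, 3 to 5 in GS, 14 to 15 for T3 in WT, 15 to 23 in Y147F, 0 to 1 in KO, 5 to 8 and 4 to 7 for the KO and GS response differences, and 0 to 1 for GS minus KO without T3. No paired analysis was possible because each array's title number differs and replicate numbers follow accession order alone. The cause of these changes was not tested, and 3 arrays per group limit all of them.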
